A study of Mus musculus with 24 samples.

Results

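The C/EBP family was followed through the livers of 24 mice as 7 genes, Cebpa, Cebpb, Cebpd, Cebpe, Cebpg, Cebpz and Ddit3, of 54432 gene identifiers in the deposited table. The members were taken by gene symbol, and Ddit3, which occurs in 2 rows, was read from the row with the higher mean. The other Ddit3 row was above 0 in 5 libraries and reached at most 1.83 normalized counts. All 7 members passed the filter on low values, a mean of at least 1 normalized count over all libraries.

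C/EBP proteins are basic leucine zipper (bZIP) factors, which bind DNA as dimers and can pair within the family or with ATF and AP-1 relatives. C/EBPα, the product of Cebpa, maintains metabolic gene expression in hepatocytes, C/EBPβ and C/EBPδ are induced by cytokines in the acute phase response, and C/EBPε is best known from maturing granulocytes. C/EBPγ lacks the usual activation domain. C/EBPγ and CHOP, the product of Ddit3, form dimers that can dampen their partners, and CHOP is induced by the integrated stress response. Cebpz, in spite of its name, encodes a CCAAT-box binding and nucleolar protein without the bZIP domain. The product of Trib1 is a pseudokinase that brings C/EBPα together with COP1, a ubiquitin ligase. C/EBPα and C/EBPβ each exist as long and short proteins made from the same mRNA, which RNA sequencing does not tell apart.

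RNA came from whole liver of male C57BL/6 mice, 6 in each of 4 groups, made as 2 cohorts with 3 mice per group and cohort. The group labelled Trib1-KO carried floxed Trib1 (Trib1 Flox/Flox), the Cebpa-KO group floxed Cebpa (Cebpa Flox/Flox), the group labelled DKO both floxed genes (Trib1;Cebpa Flox/Flox), and the WT group was Wild Type. All 4 groups, WT included, received AAV-Cre, an adeno-associated virus that encodes the recombinase which removes floxed DNA, by intraperitoneal injection at 20 to 21 weeks of age. The mice were fed chow, and their livers were collected at midday after fasting for 4 h, 4 weeks after the injection. The promoter that drove Cre is not given in the sources used here, and neither is the share of cells that recombined. Libraries are named by the letter and number of their column, C and D for the group labelled Trib1-KO, E and F for Cebpa-KO, G and H for the group labelled DKO, and A and B for WT.

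Values are normalized counts, gene-level estimates that the authors scaled for library depth. Totals were 23385900 to 27190700 normalized counts per library, with an estimated 18600000 to 34270000 reads behind them, and 19831 to 21189 genes lay above 0. Fold changes are on the log2(value + 1) scale with their standard error, from limma fitted to the 19810 genes that passed the filter, and a gene was called at an adjusted p (Benjamini-Hochberg over all genes tested) under 0.05. The median fold change of all genes lay between -0.02 and 0.01 in each comparison. Defining hepatocyte markers were abundant in every library, with the sum of the 9 measured at 908340 to 1038700 normalized counts in the libraries labelled Trib1-KO, 2692200 to 3453400 in Cebpa-KO, 2596700 to 3047100 in those labelled DKO and 2010500 to 2833400 in WT. In whole tissue, fewer cells of a type and less RNA per cell cannot be told apart. Trib1 went against the label Trib1-KO. It stood at 3734, 4164 and 4784 normalized counts (lowest, median and highest) in the libraries labelled Trib1-KO, at 286, 769 and 1077 in those labelled DKO, at 215, 287 and 646 in Cebpa-KO and at 874, 1249 and 1475 in WT. Trib1 was called lower than in WT in the libraries labelled DKO (-0.83, limma adjusted p = 0.0408). It was also called lower in Cebpa-KO (-1.96, adjusted p = 4.11e-06), where Trib1 was not floxed. In the libraries labelled DKO it was higher than in Cebpa-KO (1.13, limma adjusted p = 0.0463). That call was lost with quantile normalization (adjusted p = 0.0535) and without the libraries numbered 3 (adjusted p = 0.0881). The table holds 1 value per gene and cannot show whether the deleted stretch was lost, so the groups with floxed Trib1 are called the libraries labelled Trib1-KO and labelled DKO throughout.

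Promoters are shown for Cebpa, which fell in all 3 groups, Cebpg, which rose in all 3, and Ddit3, which rose in the libraries labelled Trib1-KO. A RefSeq start was matched for 4 of the 7 members, the fourth being Cebpb. Each line gives the 250 bases before the RefSeq start on build GRCm38.p6, read 5′ to 3′ on the gene's strand. The windows are chr7:35119043-35119292 on the plus strand for Cebpa, chr7:35056567-35056816 on the minus strand for Cebpg and chr10:127290543-127290792 on the plus strand for Ddit3. Capitals mark matches to the motifs named after the sequences.
Cebpa: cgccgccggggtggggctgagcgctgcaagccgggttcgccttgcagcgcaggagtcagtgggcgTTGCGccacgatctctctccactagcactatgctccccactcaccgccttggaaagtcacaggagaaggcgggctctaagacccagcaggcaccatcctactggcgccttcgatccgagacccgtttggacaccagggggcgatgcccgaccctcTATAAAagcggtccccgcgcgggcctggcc
Cebpg: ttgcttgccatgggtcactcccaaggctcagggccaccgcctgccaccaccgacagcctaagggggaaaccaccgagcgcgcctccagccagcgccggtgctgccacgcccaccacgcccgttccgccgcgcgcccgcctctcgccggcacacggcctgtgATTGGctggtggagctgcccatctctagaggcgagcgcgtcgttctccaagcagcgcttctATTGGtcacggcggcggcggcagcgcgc
Ddit3: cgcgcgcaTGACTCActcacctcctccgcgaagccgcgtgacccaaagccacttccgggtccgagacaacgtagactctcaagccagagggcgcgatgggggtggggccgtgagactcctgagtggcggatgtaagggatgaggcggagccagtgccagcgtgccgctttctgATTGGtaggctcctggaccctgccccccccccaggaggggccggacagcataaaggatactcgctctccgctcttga

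The motifs were searched on both strands in the same 250-base window of 32851 RefSeq promoters. The C/EBP palindrome TTGCGCAA, in 0.164% of all promoters, had no match in the 4 member promoters, and neither did the C/EBP-ATF composite site TGATGCAA, in 0.791%, or the cyclic AMP response element TGACGTCA, in 1.55%. The C/EBP core TTGCG, which the palindrome contains, matched Cebpa at 185 to 181 bases before the start and is in 14.5% of all promoters. The AP-1 site TGACTCA matched Ddit3 at 242 to 236 bases before the start, against 4.46% of all promoters, and the TATA box TATAAA matched Cebpa at 30 to 25 bases before it, against 12.4%. The CCAAT box lay on the opposite strand, printed as ATTGG, at 89 to 85 and 28 to 24 bases before the start of Cebpg and at 77 to 73 before that of Ddit3, and 33.8% of all promoters hold it. No marked match overlaps another. The member promoters lay above the median of all promoters in base composition, with a GC content of 81.6% for Cebpb, 70.8% for Cebpg, 66.4% for Cebpa and 64.8% for Ddit3 against a median of 52.4% over all promoters, and with 41, 29, 22 and 20 CG dinucleotides in the same order of genes against a median of 6. A match is a description of the letters in these windows and no evidence of binding.

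Cebpa was the most abundant bZIP member in WT liver and fell in all other groups. It lies on chromosome 7 (ENSMUSG00000034957.10, 35119293 to 35121928, plus strand, GRCm38), in 1 exon block of 2636 bases. The lowest, median and highest values in the libraries labelled Trib1-KO were 2295, 2627 and 3163 normalized counts, against 4264, 6144 and 7412 in WT. The groups did not overlap, and Cebpa fell by 1.16 ± 0.16 (limma adjusted p = 5.26e-06), to 2668 ± 359 normalized counts in the libraries labelled Trib1-KO against 6019 ± 1057 in WT (SD, n = 6 each). In Cebpa-KO the values were 50.5, 84.9 and 101, and in the libraries labelled DKO 58.1, 87.8 and 102. These 12 libraries held an estimated 45 to 132 reads each against 4856 to 8066 in WT, and Cebpa fell by 6.19 ± 0.16 in Cebpa-KO (limma adjusted p = 6.78e-19) and changed by -6.18 ± 0.16 in the libraries labelled DKO (limma adjusted p = 6.91e-19). The libraries labelled DKO and Cebpa-KO overlapped at 82.4 ± 18.1 and 82.2 ± 17.5 normalized counts (SD, n = 6 each), a log2 difference of 0.0051 with a 95% interval from -0.33 to 0.34. Library E2 of Cebpa-KO, the lowest, stood apart from the other 5 at 77.9 to 101.

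**Figure D1:**
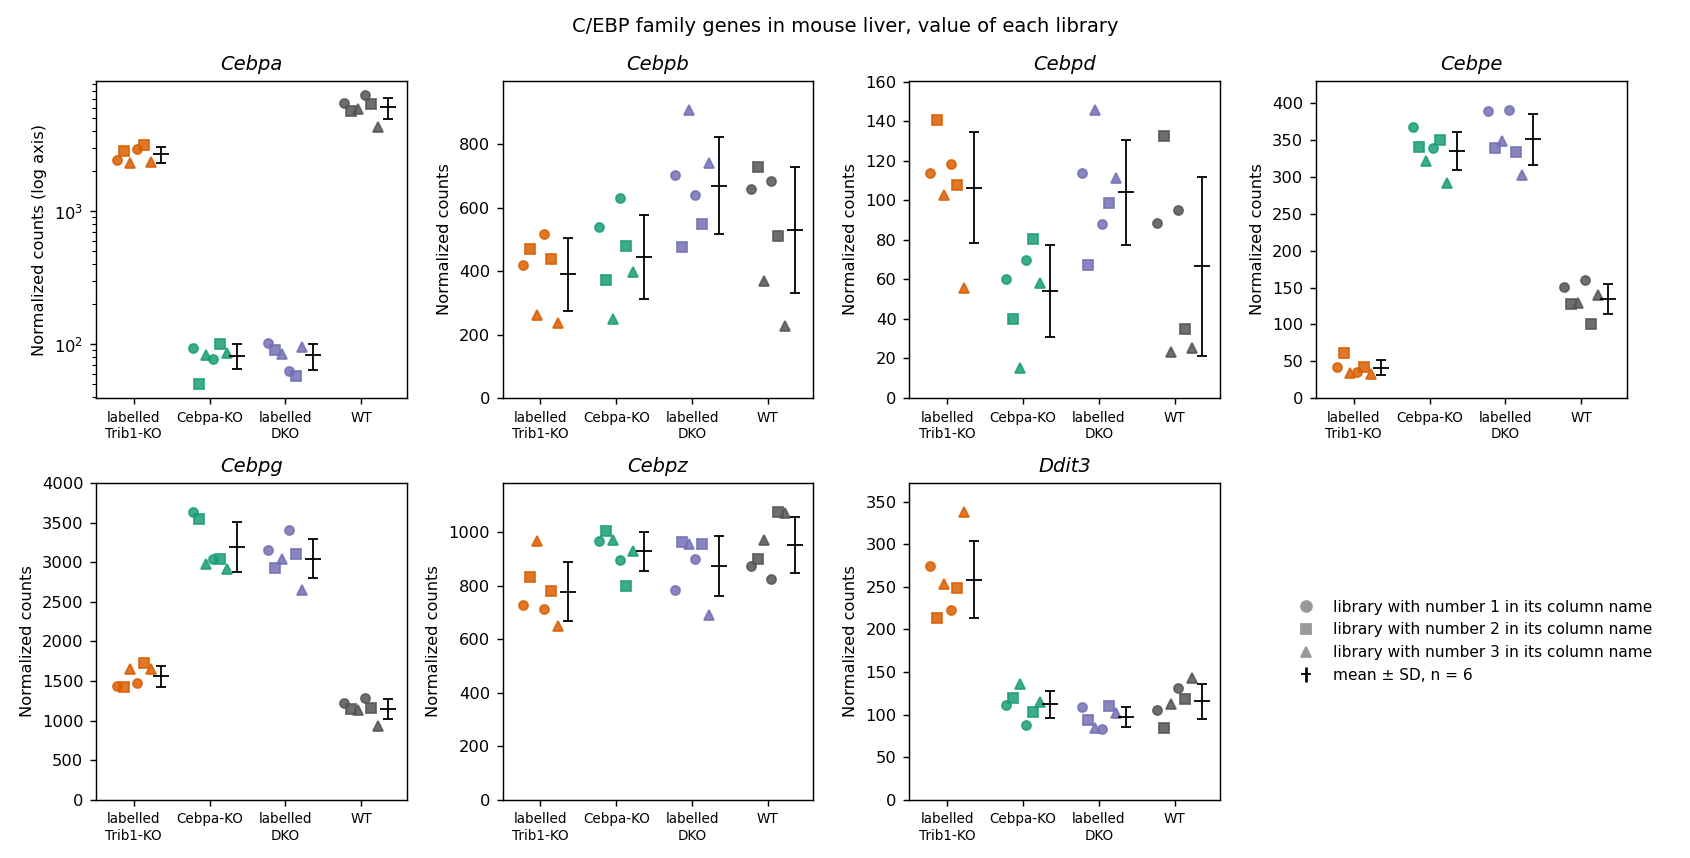
Normalized counts of the 7 members in each library (points, shaped by the number in the column name), with the mean ± SD of each group beside them (n = 6), for the libraries labelled Trib1-KO, Cebpa-KO, labelled DKO and WT. The Cebpa axis is logarithmic and the others start at 0. Cebpa, Cebpe and Cebpg separate all groups but the libraries labelled DKO and Cebpa-KO, Ddit3 stands apart in the libraries labelled Trib1-KO, and Cebpb, Cebpd and Cebpz overlap in all pairs of groups.

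Cebpb, which encodes the inducible activator C/EBPβ, varied widely within groups. It lies on chromosome 2 (ENSMUSG00000056501.3, 167688915 to 167690418, plus strand, 1504 exon bases). The lowest, median and highest values were 238, 428 and 517 normalized counts among the libraries labelled Trib1-KO, 250, 437 and 629 in Cebpa-KO, 477, 671 and 908 in those labelled DKO and 227, 585 and 729 in WT. All pairs of groups overlapped. Against WT no change passed, at -0.39 ± 0.26 in the libraries labelled Trib1-KO (limma adjusted p = 0.332), -0.20 ± 0.26 in Cebpa-KO (adjusted p = 0.724) and 0.42 ± 0.26 in those labelled DKO (adjusted p = 0.448). The libraries labelled DKO were higher than those labelled Trib1-KO, at 669 ± 152 against 390 ± 115 normalized counts (SD, n = 6 each), a log2 difference of 0.80 ± 0.26 (limma adjusted p = 0.0218). That call was lost without library G3, labelled DKO (adjusted p = 0.0573), without C3 (0.0580) or D3 (0.0626), labelled Trib1-KO, and with values scaled to totals that leave out the major urinary protein (Mup) genes (0.131), over a range of limma adjusted p from 0.0063 to 0.131.

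Many of the low Cebpb values fell on libraries with the number 3 in their names. Among those labelled Trib1-KO the 2 libraries with that number stood at 260 and 238 normalized counts and the other 4 at 419 to 517, and in Cebpa-KO E3 was the lowest at 250 while F3, at 397, lay above E2 at 373. The order was the opposite in the libraries labelled DKO, with G3 and H3 the highest at 908 and 741. In WT the 2 libraries with the number 3 stood at 367 and 227 and the other 4 at 511 to 729. The labels do not say what the number stands for, and over all genes tested 1 of 19810 differed by it in limma (0.00505%), with an adjusted p of 0.244 for Cebpb and 0.442 for Cebpd. Without the 8 libraries with that number, a choice made after these values were seen, Cebpb had a fold change of -0.48 in the libraries labelled Trib1-KO against WT (limma adjusted p = 0.0478), and the difference between the libraries labelled DKO and Trib1-KO was 0.35 (adjusted p = 0.130).

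Cebpd, which encodes the other acute phase activator C/EBPδ, was the least abundant member per length in WT. It lies on chromosome 16 (ENSMUSG00000071637.5, 15887286 to 15891031, plus strand, 3746 exon bases). The lowest, median and highest values were 55.7, 111 and 141 normalized counts among the libraries labelled Trib1-KO, 15.2, 59.0 and 80.6 in Cebpa-KO, 67.2, 105 and 146 in those labelled DKO and 23.3, 61.7 and 132 in WT. Every pair of groups overlapped, and the lowest value, that of E3, rested on an estimated 16 reads. Differences did not pass at 0.93 ± 0.40 in Trib1-KO as labelled against WT (limma adjusted p = 0.104), -0.16 ± 0.40 for Cebpa-KO (adjusted p = 0.879) and 0.91 ± 0.40 for those labelled DKO (adjusted p = 0.223). The first passed without WT library A2, the highest of WT (1.18, limma adjusted p = 0.0323), and with the scaling that leaves out Mup genes (1.17, adjusted p = 0.0295), over a range of adjusted p from 0.0295 to 0.248.

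Cebpb and Cebpd were high and low in the same libraries. Their Pearson correlation over the 24 libraries was 0.64, and 0.85 after the group means were removed. The points share library, depth and liver, and the coefficients are descriptions without a test. Among the receptors and signals known to induce the pair, 13 of 14 listed genes passed the filter. Against WT, 3 of these rose and 3 fell in Trib1-KO as labelled (median -0.02), where 11.8% of all genes were higher and 10.9% lower. In limma 0 passed in Cebpa-KO or in the libraries labelled DKO, where 9.82% and 6.09% of all genes did. Fold changes of the 13 had medians of -0.0074 and 0.08 in these groups. The oncostatin M receptor gene Osmr rose by 1.04 ± 0.22 in the libraries labelled Trib1-KO (limma adjusted p = 0.000748), while the interleukin receptor gene Il1r1 fell by 1.04 ± 0.27 (limma adjusted p = 0.00629).

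**Figure D2:**
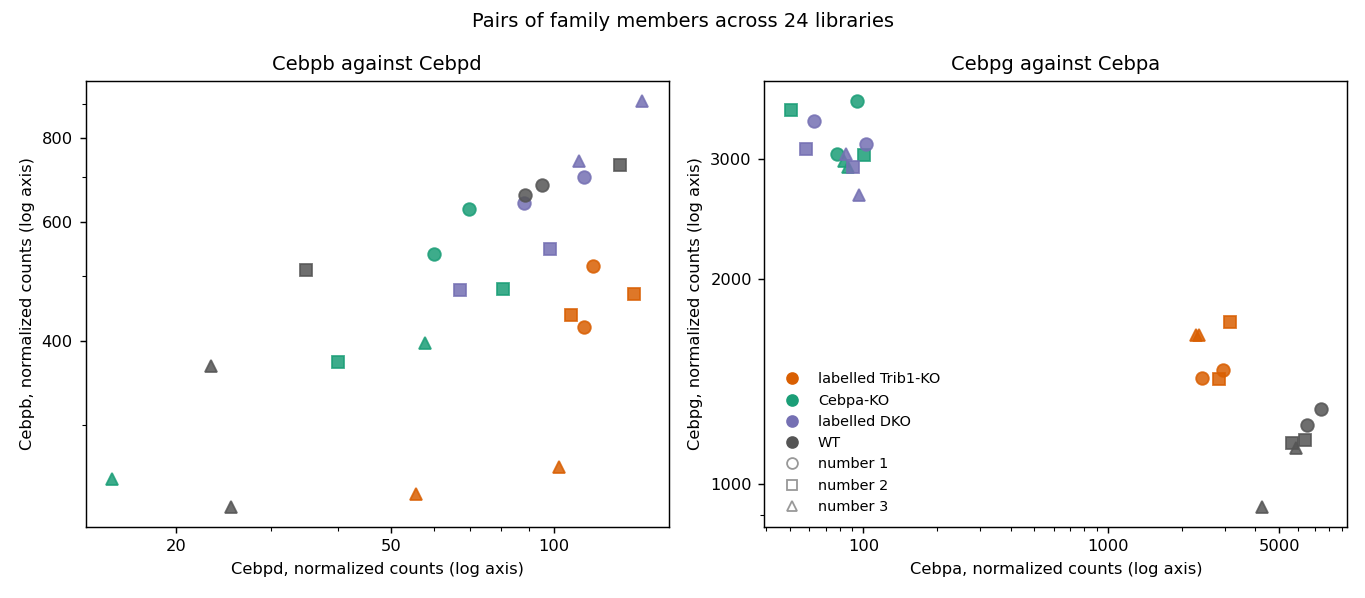
Normalized counts of Cebpb against Cebpd (left) and of Cebpg against Cebpa (right) on logarithmic axes, 1 point per library, coloured by group and shaped by the number in the column name. Cebpb and Cebpd run together within groups (0.85 after the group means were removed), while Cebpg and Cebpa fall into separate group clusters and show no relation within them (0.0023).

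Cebpe, the granulocyte member, moved in opposite ways in the single-target groups. It lies on chromosome 14 (ENSMUSG00000052435.7, 54710360 to 54712174, minus strand, 2 exon blocks, 1241 bases). The lowest, median and highest values in the libraries labelled Trib1-KO were 33.0, 39.1 and 60.5 normalized counts against 99.9, 135 and 160 in WT, without overlap. Cebpe fell by 1.70 ± 0.13 there (limma adjusted p = 5e-10). In Cebpa-KO the values were 292, 340 and 368 and in the libraries labelled DKO 303, 344 and 391, all above WT. Cebpe rose by 1.32 ± 0.13 in Cebpa-KO (limma adjusted p = 1.94e-07) and by 1.39 ± 0.13 in the libraries labelled DKO (adjusted p = 1.84e-07). Those groups overlapped, with a log2 difference of 0.06 and a 95% interval from -0.21 to 0.34. Between the libraries labelled DKO and those labelled Trib1-KO the difference was 3.08 ± 0.13, at 351 ± 34.2 against 41.3 ± 10.3 normalized counts (SD, n = 6 each).

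Markers of neutrophils, the cells in which C/EBPε is best known, were higher in part of the libraries of all 3 groups, those with low Cebpe included. Of 9 tested markers, 3 rose in Trib1-KO as labelled, 1 in Cebpa-KO and 1 in the libraries labelled DKO, and 0 fell. In these groups 11.8%, 4.6% and 2.84% of all genes were higher. The marker called in Cebpa-KO and in those labelled DKO was Retnlg, near the filter at 4.90 and 6.04 normalized counts. In WT it stood at 1.05 and was at 0 in 3 of 6 libraries. With quantile normalization 1 rose in Trib1-KO as labelled, with totals that leave out Mup genes 0 rose in Cebpa-KO, and without the libraries numbered 3 none (0 of 8 in limma) rose in those labelled DKO. The summed level of 10 neutrophil markers was 142 to 413 normalized counts in the libraries labelled Trib1-KO, 104 to 375 in Cebpa-KO, 124 to 462 in those labelled DKO and 68.7 to 157 in WT. The libraries labelled Trib1-KO, with the lowest Cebpe, overlapped WT in this sum at their low end. The defining granule gene Mpo was listed at 0 in 3 of 6, 4 of 6, 3 of 6 and 6 of 6 libraries of these groups in the same order, Ly6g in 4, 5, 5 and 4, and the granule gene Elane in 2, 4, 3 and 1. The part of these cells in the Cebpe values was not tested. Among 10 genes listed as granulocyte targets of C/EBPε, 9 passed the filter. Of these, 4 rose and 0 fell in the libraries labelled Trib1-KO, with Cybb, a subunit of the phagocyte oxidase, at 1.12 ± 0.15 (limma adjusted p = 2.44e-06) and Lcn2, lipocalin 2, at 3.64 ± 1.02 (adjusted p = 0.0105), and the list median was 0.83 against 0.01 for all genes. With quantile normalization 2 of the 9 rose. In Cebpa-KO and in the libraries labelled DKO 0 of the 9 passed, with medians of 0.13 and 0.49.

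Cebpg, the partner without an activation domain, rose in all 3 groups. It lies 62.7 kb from Cebpa on the other strand of chromosome 7 (ENSMUSG00000056216.9, 35046422 to 35056573, minus strand, 3 exon blocks, 5621 bases). The lowest, median and highest values were 1428, 1561 and 1727 normalized counts among the libraries labelled Trib1-KO, 2917, 3039 and 3639 in Cebpa-KO, 2649, 3072 and 3402 in those labelled DKO and 927, 1155 and 1288 in WT. The libraries labelled Trib1-KO lay between WT and both groups with floxed Cebpa, and only those 2 overlapped. Cebpg rose by 0.45 ± 0.08 in the libraries labelled Trib1-KO (limma adjusted p = 0.000162), by 1.48 ± 0.08 in Cebpa-KO (adjusted p = 5.5e-12) and by 1.41 ± 0.08 in those labelled DKO (adjusted p = 2.08e-11). The libraries labelled DKO differed from Cebpa-KO by -0.07 (95% interval from -0.23 to 0.10). Over the 24 libraries Cebpg and Cebpa correlated at -0.97, which fell to 0.0023 after the group means were removed, so the relation rests on the group means.

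Ddit3, which encodes CHOP, rose in the libraries labelled Trib1-KO alone among the comparisons with WT. It lies on chromosome 10 (ENSMUSG00000025408.15, 127290774 to 127296288, plus strand, 4 exon blocks, 1713 bases). The lowest, median and highest values were 214, 251 and 339 normalized counts among the libraries labelled Trib1-KO, 87.9, 113 and 136 in Cebpa-KO, 82.7, 97.7 and 111 in those labelled DKO and 84.3, 115 and 143 in WT. The libraries labelled Trib1-KO lay above all 18 others, whose groups overlapped. Ddit3 rose by 1.15 ± 0.14 in the libraries labelled Trib1-KO (limma adjusted p = 6.12e-07) and did not pass in Cebpa-KO at -0.04 ± 0.14 (adjusted p = 0.908) or in those labelled DKO at -0.24 ± 0.14 (adjusted p = 0.376). Between the libraries labelled DKO and those labelled Trib1-KO the log2 difference was -1.40 ± 0.14 (limma adjusted p = 1.33e-08).

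Against WT, Cebpz had small changes. It lies on chromosome 17 (ENSMUSG00000024081.9, 78919006 to 78937066, minus strand, 16 exon blocks, 4658 bases). Values ran from 651 to 967 normalized counts in the libraries labelled Trib1-KO, 799 to 1003 in Cebpa-KO, 690 to 961 in those labelled DKO and 826 to 1077 in WT, and all groups overlapped. Cebpz fell by 0.30 ± 0.10 in the libraries labelled Trib1-KO (limma adjusted p = 0.031), a call that was lost without any of 6 libraries in turn, namely C1, D1, D3, A3, B2 or B3 (adjusted p from 0.0541 to 0.0842). With totals that leave out Mup genes it stood at -0.05 (limma adjusted p = 0.758). It did not pass in Cebpa-KO at -0.04 ± 0.10 (adjusted p = 0.890) or in the libraries labelled DKO at -0.13 ± 0.10 (adjusted p = 0.559). Of 18 genes of nucleolar ribosome assembly, 2 rose among the libraries labelled Trib1-KO, 0 in Cebpa-KO and 1 in those labelled DKO, and 0 fell, where 11.8%, 4.6% and 2.84% of all genes were higher. Without the libraries numbered 3 the counts were 1, 0 and 0, and with totals that leave out Mup genes 7, 0 and 1. With those totals 5180, 674 and 417 of the 19810 genes tested were higher in the same order of groups.

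Neighbouring genes limit how far some members can be separated. Members with a partner on the opposite strand are Cebpa (Gm45091, which overlaps its start), Cebpb (Tmem189), Cebpd (Spidr), Cebpz (Cebpzos) and Ddit3 (Mars). The libraries were stranded, but whether the authors' counting used the strand is not given in the sources used here. Without strand, reads from a stretch where such a pair overlaps cannot be told apart. Mars fell by 0.35 ± 0.08 in the libraries labelled Trib1-KO (limma adjusted p = 0.00137), opposite to Ddit3, and Spidr rose by 0.54 ± 0.13 (adjusted p = 0.00235), on the same side as Cebpd. Gm45091, at a mean of 15.4 normalized counts, fell there by 0.96 ± 0.26 (limma adjusted p = 0.00811), on the same side as Cebpa. The partners Tmem189 and Cebpzos did not pass there at 0.21 and -0.17 (adjusted p = 0.238 and 0.175).

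Counted over the family, 5 of 7 members passed in the libraries labelled Trib1-KO against WT, with 2 higher (Cebpg and Ddit3) and 3 lower (Cebpa, Cebpe and Cebpz), where 22.7% of all genes tested passed (11.8% higher and 10.9% lower). In Cebpa-KO 3 of 7 passed, with Cebpe and Cebpg higher and the floxed Cebpa lower, where 9.82% of all genes did (4.6% higher and 5.22% lower). The same 3 passed in the same directions in the libraries labelled DKO, where 6.09% of all genes did (2.84% higher and 3.25% lower). Between the libraries labelled DKO and Cebpa-KO, which differ in floxed Trib1, 0 of 7 passed in limma, where 0.202% of all genes did, and 2 had an unadjusted p under 0.05, namely Cebpb at 0.62 ± 0.26 (adjusted p = 0.458) and Cebpd at 1.06 ± 0.40 (adjusted p = 0.378). Without the libraries numbered 3 these values were 0.24 and 0.57 (limma adjusted p = 0.759 and 0.698). Between the libraries labelled DKO and Trib1-KO 5 of 7 passed, with Cebpb, Cebpe and Cebpg higher and Cebpa and Ddit3 lower, where 30.3% of all genes did (14.6% higher and 15.7% lower). These comparisons share libraries, so their counts are not independent of each other. Ranges without overlap were found for 4 members in the libraries labelled Trib1-KO against WT, as for 12% of all genes, and for 3 members in Cebpa-KO (5.17%) and in those labelled DKO (3.11%). The libraries labelled DKO had such ranges for 0 members against Cebpa-KO, where 0.712% of all genes did, and for 4 against those labelled Trib1-KO, where 16.9% did.

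**Figure D3:**
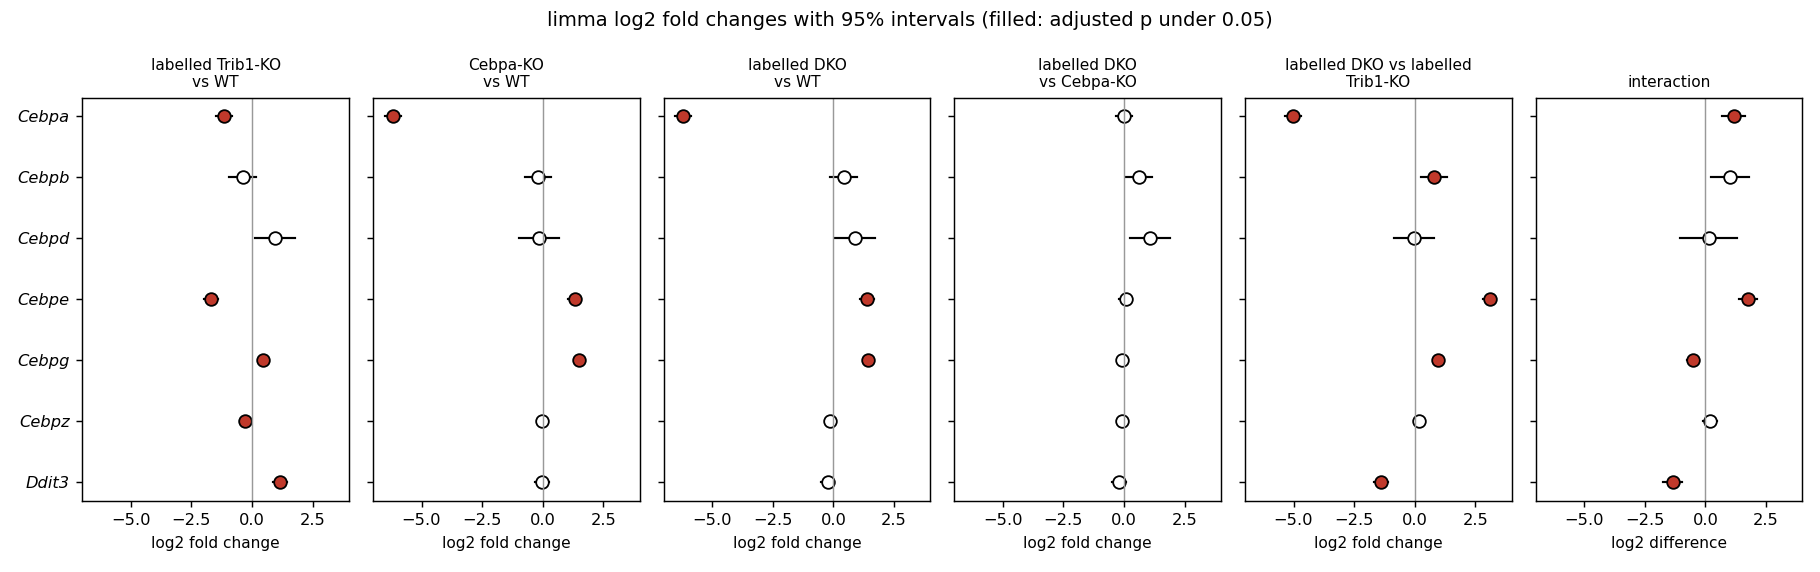
Log2 fold changes of the 7 members from limma with 95% intervals for the 5 comparisons of groups and the interaction, filled where the adjusted p was under 0.05. Cebpa sits near -6.19 and -6.18 in Cebpa-KO and the libraries labelled DKO against WT, Cebpe changes side between the libraries labelled Trib1-KO and Cebpa-KO, and 0 of 7 points are filled for the libraries labelled DKO against Cebpa-KO.

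The scale of the libraries labelled Trib1-KO depended on the scaling chosen. With trimmed-mean scaling and quantile normalization the median fold change of all genes against WT was 0.01 and -0.05. A further alternative divided each library by its total without the Mup genes. It replaced the authors' scaling as well as leaving out Mup genes, and totals that keep these genes were not tried, so the part of Mup genes was not tested. With totals that leave these genes out, the median fold change of all genes moved to 0.24 in the libraries labelled Trib1-KO against WT, 5180 genes were higher and 987 lower in place of 2330 and 2168, and the members stood at -0.92 for Cebpa, -1.46 for Cebpe, 0.69 for Cebpg and 1.40 for Ddit3, all called in limma (adjusted p from 1.2e-08 to 0.000167). Set against that median, Cebpa and Cebpe stayed below it and Cebpg and Ddit3 above it. The median moved to -0.29 for the libraries labelled DKO against those labelled Trib1-KO, where Cebpe stood at 2.80, Cebpg at 0.68 and Ddit3 at -1.68.

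The difference that goes with floxed Trib1 changed with Cebpa for 4 members, where 12.6% of all genes passed (6.35% higher and 6.22% lower). This interaction takes the log2 fold change of Trib1-KO as labelled over WT away from that of the libraries labelled DKO over Cebpa-KO. It was 1.76 ± 0.19 for Cebpe (limma adjusted p = 2.91e-07), 1.17 ± 0.23 for Cebpa itself (adjusted p = 0.000823), -0.51 ± 0.11 for Cebpg (adjusted p = 0.00294) and -1.36 ± 0.19 for Ddit3 (adjusted p = 2.26e-05). The fold changes of the libraries labelled DKO over Cebpa-KO lay between -0.20 and 0.06 for these 4 and did not pass. Cebpa is counted among the 4 although it is the floxed gene in both of these groups. Its interaction therefore repeats its -1.16 in the libraries labelled Trib1-KO against WT with the sign turned. The Cebpg value was -0.40 without the libraries numbered 3 (limma adjusted p = 0.0535). Cebpb stood at 1.01 ± 0.37 without passing (adjusted p = 0.0805), but passed without WT library B3 at 1.23 (adjusted p = 0.0127).

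Levels of different members were compared per kb of exon. Cebpa led in the libraries labelled Trib1-KO at 1012 ± 136 normalized counts per kb, followed by Cebpg at 278 ± 23.6 and Cebpb at 260 ± 76.3, which overlapped. In Cebpa-KO Cebpg led at 568 ± 55.6 normalized counts per kb, followed by Cebpb at 295 ± 88.9 and Cebpe at 270 ± 21.1, which overlapped, and Cebpa at 31.2 ± 6.62 lay above Cebpd alone. The lead in the libraries labelled DKO was shared by Cebpg at 542 ± 44.6 and Cebpb at 445 ± 101 normalized counts per kb, which overlapped. In WT the order of means was Cebpa at 2283 ± 401 normalized counts per kb, Cebpb at 352 ± 132, Cebpz at 205 ± 22.5, Cebpg at 204 ± 21.7, Cebpe at 108 ± 16.9, Ddit3 at 67.6 ± 12.0 and Cebpd at 17.8 ± 12.1 (SD, n = 6), in which Cebpz and Cebpg did not differ beyond their spread.

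Of the summed level per kb of the 6 bZIP members, Cebpa held 57.3 ± 1.78% in the libraries labelled Trib1-KO, 2.52 ± 0.577% in Cebpa-KO, 2.27 ± 0.531% in those labelled DKO and 75.3 ± 2.62% in WT (SD, n = 6). Cebpg held 15.9%, 45.8% and 39.3% in these 3 groups and 6.80% in WT. The sum without Cebpa was 750 ± 56.7 normalized counts per kb in the libraries labelled Trib1-KO, 1213 ± 127 in Cebpa-KO, 1354 ± 122 in those labelled DKO and 750 ± 160 in WT. The rise of Cebpg and Cebpe thus stood beside a total that remained below WT, at 1244 ± 127 normalized counts per kb in Cebpa-KO and 1385 ± 123 in the libraries labelled DKO against 3033 ± 533 in WT. The level of Cebpb over that of Cebpa per kb was 0.253 in the libraries labelled Trib1-KO, 9.79 in Cebpa-KO, 14.7 in those labelled DKO and 0.151 in WT. Shares of a sum depend on each other, so a lower Cebpa raises the share of each other member by itself.

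**Figure D4:**
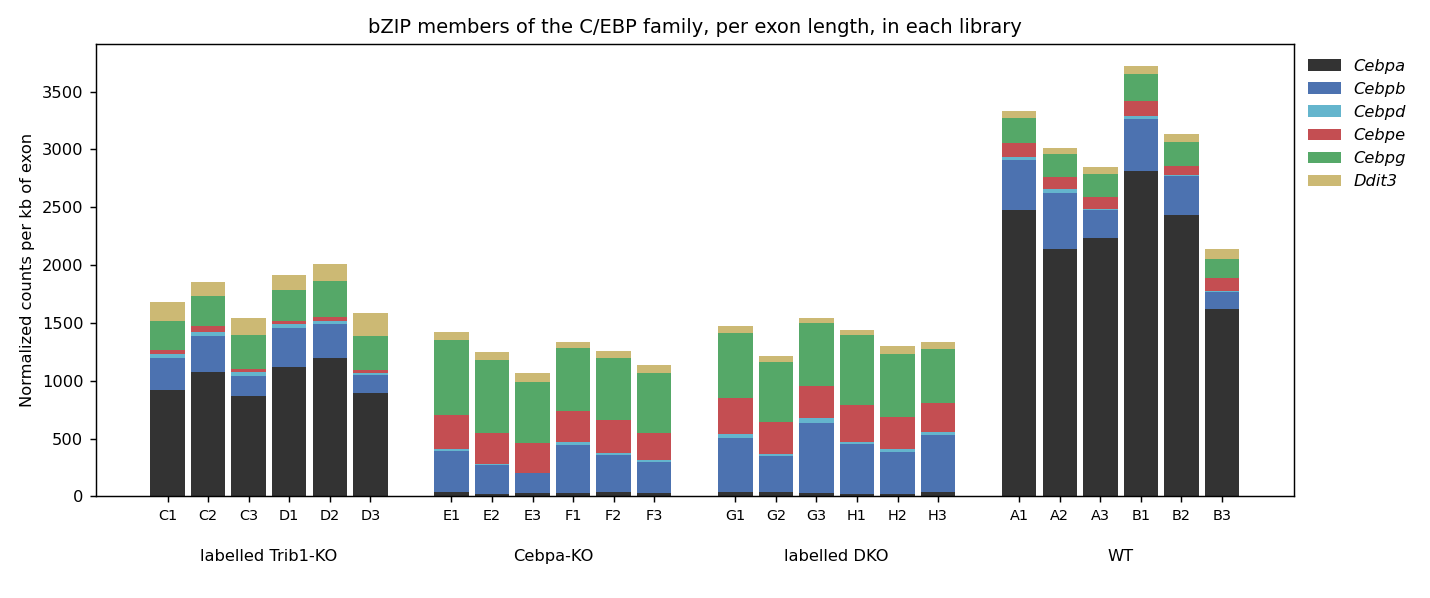
Normalized counts per kb of exon of the 6 bZIP members, stacked for each library, for the libraries labelled Trib1-KO, Cebpa-KO, labelled DKO and WT. Cebpa makes up 2.52% and 2.27% on average in Cebpa-KO and the libraries labelled DKO, where Cebpg has the largest mean share, and 75.3% on average in WT.

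Genes of the stress pathway around CHOP rose in the libraries in which Ddit3 rose. Of 19 tested targets of CHOP and ATF4, 11 rose and 1 fell in the libraries labelled Trib1-KO, where 11.8% of all genes were higher and 10.9% lower. Their median was 0.98 against 0.01 for all genes. Nupr1, a stress-induced chromatin protein, was at 177 normalized counts against 24.2 in WT (2.85 ± 0.31, limma adjusted p = 1.66e-07), and Vldlr, the very low density lipoprotein receptor, at 461 against 32.1 (3.91 ± 0.36, adjusted p = 1.17e-08). Shmt2, a mitochondrial enzyme of serine and glycine metabolism, was the member that fell (-0.69 ± 0.09, limma adjusted p = 1.39e-06). In Cebpa-KO 1 rose and 4 fell (median -0.37), where 4.6% of all genes were higher and 5.22% lower. In the libraries labelled DKO 2 rose and 7 fell (median -0.21), or 1 and 4 without the libraries numbered 3, where 2.84% were higher and 3.25% lower. Asns, asparagine synthetase, was at 12.4 normalized counts in Cebpa-KO and 18.4 in the libraries labelled DKO against 292 in WT (-4.51 ± 0.47 and -4.13 ± 0.47, limma adjusted p = 4.23e-07 and 2.28e-06). Ddit3 itself did not pass in either group.

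Between the libraries labelled DKO and Trib1-KO 2 of these 19 were higher and 12 lower (median -1.43), where 14.6% of all genes were higher and 15.7% lower. Asns stood at 18.4 against 1209 normalized counts (-6.36 ± 0.47, limma adjusted p = 9.27e-11). Chaperones of the endoplasmic reticulum answer to the other branches of the unfolded protein response. Of 16 tested, 3 were higher and 1 lower in the libraries labelled DKO than in those labelled Trib1-KO (median 0.15). With totals that leave out Mup genes the counts were 0 and 2 (median -0.13, against -0.29 for all genes). Against WT, 0 rose and 1 fell in the libraries labelled Trib1-KO (median -0.14), 0 and 1 in Cebpa-KO (median -0.09) and 0 and 0 in those labelled DKO (median -0.02). The shares of all genes that were lower were 10.9%, 5.22% and 3.25% in the same order. The member that fell in the libraries labelled Trib1-KO, Dnajc3 at -0.25 ± 0.09 (limma adjusted p = 0.0452), did not pass with trimmed-mean scaling (adjusted p = 0.0514). With totals that leave out Mup genes Dnajc3 stood at -0.0071, and 1 of the 16 rose (median 0.11, against 0.24 for all genes). Without the libraries numbered 3, 4 of 16 fell in Trib1-KO as labelled (median -0.32) and 2 in Cebpa-KO (median -0.29).

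Markers of other cell types were called in all 3 groups. Among all genes, 11.8% were higher and 10.9% lower in the libraries labelled Trib1-KO. These shares were 4.6% and 5.22% in Cebpa-KO and 2.84% and 3.25% in those labelled DKO. Whether the counts of markers differ from these shares was not tested. Of 9 hepatic stellate cell markers, 4 rose in Trib1-KO as labelled, 0 in Cebpa-KO and 0 in the libraries labelled DKO, and 0 fell. Of 12 Kupffer cell and macrophage markers, 9 rose in Trib1-KO as labelled, 0 in Cebpa-KO and 0 in those labelled DKO, and 0 fell. Their summed level was 18067 to 21994 normalized counts in the libraries labelled Trib1-KO, 12717 to 17044 in Cebpa-KO, 11248 to 17929 in those labelled DKO and 10145 to 17511 in WT, and no marker was at 0 in any library. Of 9 hepatocyte markers tested, 0 rose and 7 fell in the libraries labelled Trib1-KO, 2 rose and 2 fell in Cebpa-KO, and 1 rose and 2 fell in those labelled DKO. Of 7 cholangiocyte markers tested, 3 fell in Trib1-KO as labelled. In Cebpa-KO the cholangiocyte gene Spp1, which other cells also express, rose by 1.66 ± 0.21 and Sox9 stood at -1.88 ± 0.24 (limma adjusted p = 4.61e-06 and 5.12e-06), and in the libraries labelled DKO they stood at 1.65 ± 0.21 and -1.75 ± 0.24 (limma adjusted p = 9.9e-06 and 2.57e-05). Of 5 erythroid markers tested, 1 fell in each of the groups with floxed Cebpa, Alas2, an enzyme of heme synthesis in red cells, at -1.11 ± 0.15 in Cebpa-KO and -1.38 ± 0.15 in those labelled DKO (limma adjusted p = 1.51e-05 and 1.26e-06). Among 10 lymphocyte markers, 2 rose and 1 fell in Trib1-KO as labelled, 1 rose in Cebpa-KO (the immunoglobulin gene Ighm, 1.34 ± 0.26, limma adjusted p = 0.000909) and 0 of 10 passed in limma in those labelled DKO. The part of these shifts in the values of the members was not tested.

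Of 20 dimer partners and related bZIP factors, 8 rose and 2 fell in the libraries labelled Trib1-KO (median 0.33), where 11.8% of all genes were higher and 10.9% lower. Atf3, a stress-induced repressor, was at 601 normalized counts against 12.7 in WT (5.46 ± 0.39, limma adjusted p = 1.02e-10), Atf5 at 7181 against 4073 (0.83 ± 0.11, adjusted p = 2.35e-06) and Fosl2, an AP-1 subunit, at 465 against 232 (0.99 ± 0.16, adjusted p = 6.21e-05). Creb3l3, a membrane-bound factor of hepatocytes, fell by 0.74 ± 0.06 (adjusted p = 3.06e-10). In Cebpa-KO 2 rose and 3 fell, or 0 and 2 without the libraries numbered 3, where 4.6% of all genes were higher and 5.22% lower. In the libraries labelled DKO 1 rose and 2 fell, or 0 and 2 without the libraries numbered 3, where 2.84% were higher and 3.25% lower. Whether the groups differ in these counts was not tested. Atf5 fell in both groups, with log2 fold changes of -0.96 ± 0.11 in Cebpa-KO and -0.75 ± 0.11 in those labelled DKO (limma adjusted p = 1.25e-06 and 6.32e-05), and so did Nfil3, a bZIP repressor known from circadian regulation, at 236 normalized counts in Cebpa-KO and 240.1 in those labelled DKO against 489 in WT (adjusted p = 0.00041 and 0.00118). Atf4, the stress factor upstream of Ddit3, was at 2032 normalized counts in the libraries labelled Trib1-KO (0.32 ± 0.09, limma adjusted p = 0.0076), 1249 in Cebpa-KO (-0.38 ± 0.09, adjusted p = 0.00374) and 1457 in those labelled DKO (-0.16 ± 0.09, adjusted p = 0.335) against 1643 in WT. It was named for the first and the last of these groups after its values were seen, and in Cebpa-KO it did not pass without the libraries numbered 3 (adjusted p = 0.0685).

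Textbook liver targets of C/EBPα were called in both directions. The shares of all genes higher and lower were 4.6% and 5.22% in Cebpa-KO. They were 2.84% and 3.25% in the libraries labelled DKO and 11.8% and 10.9% in those labelled Trib1-KO. Of 16 tested, 2 rose and 7 fell in Cebpa-KO (median -0.24), 2 rose and 5 fell in the libraries labelled DKO (median -0.18), and 1 rose and 4 fell in those labelled Trib1-KO (median -0.07). The last median turned to 0.18 with totals that leave out Mup genes, where 4 rose and 3 fell. With those totals the median of all genes was 0.24, and 5180 genes were higher and 987 lower. With quantile normalization the median of the targets was 0.16, against -0.05 for all genes. Igfbp1, a binding protein for insulin-like growth factors, was at 149 normalized counts in Cebpa-KO and 347 in the libraries labelled DKO against 1256 in WT (-3.16 ± 0.41 and -2.05 ± 0.41, limma adjusted p = 7.97e-06 and 0.00245), and at 4400 in those labelled Trib1-KO (1.94 ± 0.41, adjusted p = 0.000897). Cdkn1a, a cell cycle inhibitor, stood at -2.24 ± 0.35 in Cebpa-KO (limma adjusted p = 1e-04) and at -1.55 ± 0.35 in the libraries labelled DKO (adjusted p = 0.0071, and 0.122 without the libraries numbered 3). Alb, serum albumin, fell by 2.02 ± 0.15 in those labelled Trib1-KO (limma adjusted p = 2.06e-10). The 2 targets that rose in Cebpa-KO were Alb itself, at 0.67 ± 0.15, and the hepatocyte marker Ttr, at 0.45 ± 0.09 (limma adjusted p = 0.00383 and 0.00114). With quantile normalization Alb stood at 0 in Cebpa-KO and did not pass.

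Acute phase genes with sites for C/EBPβ and C/EBPδ went both ways. Of 15 tested, 3 rose and 4 fell in the libraries labelled Trib1-KO while the median was 0.40, so count and median differ in sign. With totals that leave out Mup genes 4 rose and 3 fell, where 5180 of all genes were higher and 987 lower. Apcs, serum amyloid P, rose by 2.48 ± 0.44 (limma adjusted p = 0.000136) and Saa3, a serum amyloid A, by 2.01 ± 0.42 (adjusted p = 0.00082), while Fga, a fibrinogen chain, fell by 1.11 ± 0.23 (adjusted p = 0.000653). In Cebpa-KO 1 rose and 1 fell (median -0.59), with the orosomucoid gene Orm1 at 487 normalized counts against 14460 in WT (-6.99 ± 1.18, adjusted p = 0.000239). None passed in the libraries labelled DKO (0 of 15 in limma, median 0.42). These libraries were uneven, with the 15 genes summing to 1810800 normalized counts in H2 and 1614000 in H3 against a group median of 661100. In Cebpa-KO the sum was 1100500 in F3 against a group median of 504175. For all genes, the shares higher and lower were 11.8% and 10.9% in the libraries labelled Trib1-KO and 4.6% and 5.22% in Cebpa-KO. In the libraries labelled DKO they were 2.84% and 3.25%. Reads of near-identical orosomucoid and serum amyloid genes can be split between copies, so single members of these families are uncertain.

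Genes that C/EBP factors activate in fat cells rose in the libraries labelled Trib1-KO, where 5 of 9 tested rose and 0 fell (median 1.95), and 3 of 12 listed genes did not reach the filter. Cidec, a lipid droplet protein, was at 2211 normalized counts against 203 in WT (3.67 ± 0.47, limma adjusted p = 1.59e-06), Cd36, a fatty acid transporter, at 5001 against 1277 (2.07 ± 0.27, adjusted p = 3.01e-06) and Fabp4, a fatty acid binding protein, at 761 against 202 (1.95 ± 0.19, adjusted p = 2.83e-08). The adipocyte hormone gene Lep was listed at 0 in all 24 libraries, and Adipoq in 1 of 6 of the libraries labelled Trib1-KO, 6 of 6 of Cebpa-KO, 6 of 6 of those labelled DKO and 5 of 6 of WT. In Cebpa-KO and in the libraries labelled DKO 1 of 9 rose and 0 fell (medians -0.17 and -0.56). This was the lipoprotein lipase gene Lpl, at 2.07 ± 0.27 and 1.27 ± 0.27 (limma adjusted p = 8.76e-06 and 0.00417). Of all genes tested, 11.8% were higher in the libraries labelled Trib1-KO, 4.6% in Cebpa-KO and 2.84% in those labelled DKO.

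**Figure D5:**
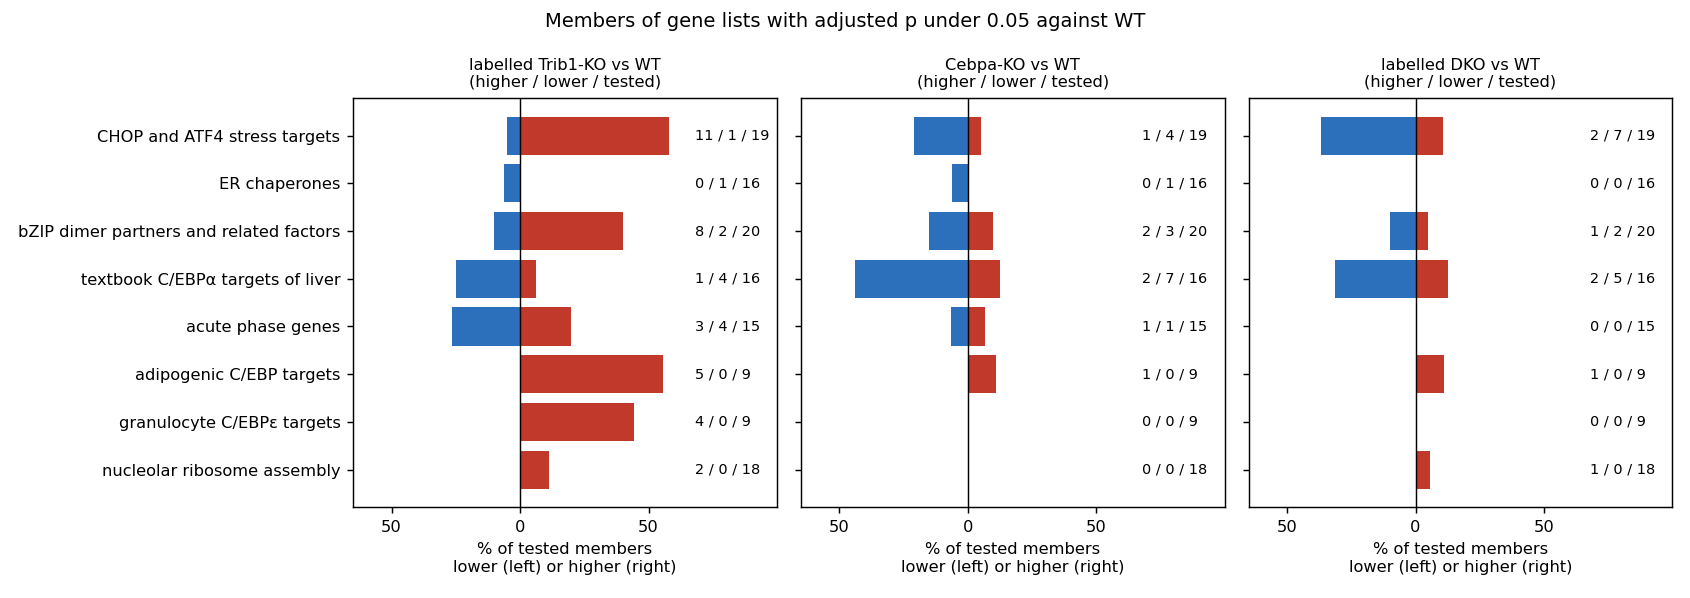
Share of the tested members of 8 gene lists that were higher (right) or lower (left) than WT in limma at an adjusted p under 0.05, for Trib1-KO as labelled, Cebpa-KO and DKO as labelled, with the counts higher, lower and tested printed beside each bar. CHOP and ATF4 targets, with 11 of 19 higher, and adipogenic targets, with 5 of 9 higher, have the largest shares in the libraries labelled Trib1-KO. The C/EBPα targets have the most lower members in Cebpa-KO, 7 of 16. Of all genes, 11.8% were higher in the libraries labelled Trib1-KO and 5.22% lower in Cebpa-KO.

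The patterns of the members were set beside those of 12617 other genes by Pearson correlation of log2(value + 1) over the 24 libraries, as a description. The values share 4 group means, so a high coefficient can come from the groups alone. Cebpa was most like Susd4 (0.96), which encodes a complement regulator, Srd5a1 (0.96), a steroid reductase, and Pop4 (0.93). Cebpe was most like the cytochrome P450 gene Cyp2c55, the reductase gene Akr1c19 and Ftcd, an enzyme of histidine breakdown (0.97 each), and Ddit3 most like Elovl7 (0.95), a fatty acid elongase, and the annexin genes Anxa2 and Anxa5 (0.94 each). Cebpg was most like Pdxk, the pyridoxal kinase gene (0.93), Prrx1 (0.91) and Fam120b (0.90). For the remaining members the highest coefficients were lower, with Cebpb most like Mrpl34 (0.89), Aph1a (0.87) and Uqcrq (0.86), Cebpd most like Errfi1 (0.80), Sema6b (0.75) and Slc10a6 (0.74), and Cebpz most like Kbtbd4, Oga (0.76 each) and Usp47 (0.75).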

How the data were processed

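Whole-liver RNA of 24 mice was sequenced from stranded, poly(A)-selected libraries, per the labels' protocols. The authors deposited 1 table in the unit signal, with gene-level estimated counts that the authors scaled for library depth, a reading that rests on the values. Salmon, DESeq2 and the build GRCm38.p6 are named in the submitters' processing notes, without versions or settings. Low values were whole multiples of the value of 1 read, within 0.02 of a read, for 63.1 to 66.5% of them, so whole reads were not recovered and no count test was run. The read estimates behind single values come from that step of 0.686 to 1.46 normalized counts.

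No column names its mouse (a column carries the group, 1 letter and 1 number), and 0 value columns were left unmapped. The cohorts could therefore not be assigned to columns, and cohort was not fitted. Each group has 2 letters with 3 columns each, as many as the mice per cohort, but nothing says that a letter marks a cohort. As alternatives chosen after the data were seen, the first or second letter was fitted as a block and the libraries numbered 3 were left out. The test was limma 3.58.1 with its trend option, run in R 4.3.3 on log2(value + 1) of 19810 genes whose mean was 1 or more. All 24 libraries entered 1 fit of 4 group means, from which 5 comparisons and the interaction were read, and the method was tested on simulated data. Adjusted p values are Benjamini-Hochberg over all genes tested. The p-values measure the spread of mice within groups, pooled over the 4 groups of 6 and drawn by limma toward the trend over all genes. Differences between cohorts remain in that spread.

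Besides the 7 members and Trib1, up to 4 called genes with the smallest adjusted p were eligible for naming from each list and comparison, and for likeness the 3 genes with the highest correlation among genes with a mean of 10 or more, without predicted-gene, clone and pseudogene names. Genes overlapping or beside a member were named for their position. Members, lists and tests were chosen with earlier results of these data known. Gene positions and exon lengths come from the annotation of the same identifiers, and promoter sequences from RefSeq on GRCm38.p6. Alternatives were other pseudocounts, filters, scalings, samples in the fit, weights, a replicate block and leaving out each library.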

Additional observations from a re-analysis of the deposited data

Results flagged for a closer look

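Of 32 groups of 6 libraries examined for a library far from the rest, 4 held such a library, and chance marks about 1 in 20. Cebpa in Cebpa-KO library E2 stood at 50.5 normalized counts against 77.9 to 101 in the other 5. Cebpd in library D3, labelled Trib1-KO, stood at 55.7 against 102 to 141. Trib1 in Cebpa-KO library F3 stood at 646 against 215 to 323, and in library H1, labelled DKO, at 286 against 662 to 1077.

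The difference that goes with floxed Trib1 changed with Cebpa for 4 members, by limma's test of the interaction, with log2 differences of 1.17 for Cebpa, 1.76 for Cebpe, -0.51 for Cebpg and -1.36 for Ddit3 (adjusted p from 2.91e-07 to 0.00294). The value of Cebpa, floxed in both Cebpa-KO and the libraries labelled DKO, repeats its fall in those labelled Trib1-KO with the sign turned.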

How the results depend on the processing

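The counts of members called kept within 1.5 times of those reported under all 37 alternatives (36 for the interaction). For the libraries labelled Trib1-KO against WT they ran from 4 to 6, for those labelled DKO against those labelled Trib1-KO from 4 to 5 and for the interaction from 3 to 5, and in the comparisons of Cebpa-KO and of the libraries labelled DKO with WT and of these 2 groups with each other they were 3, 3 and 0 throughout. Of 1547 single values of members, 15 lost and 5 gained a call and 0 called values changed sign. All 20 were those of Cebpb, Cebpd, Cebpz or the Cebpg interaction, and the cause was not tested. With the replicate block on the number in the column name, the members called were 5, 3, 3, 0, 5 and 5 for Trib1-KO as labelled, Cebpa-KO and DKO as labelled over WT, for DKO as labelled over Cebpa-KO and over Trib1-KO as labelled, and for the interaction, in that order, and the interaction of Cebpb passed (limma adjusted p = 0.0316). The numbers did not pair the libraries, since deviations from the group means correlated at 0.0126 for the same number and -0.0063 for different numbers, so the block value is no evidence for or against a call. With the first or second letter of each group as a block, the member calls were 5, 3, 3, 0, 5 and 4 in the same order, and 0 of 19810 genes differed by that letter in limma (833 at an unadjusted p under 0.05). Over all genes, the calls for the libraries labelled DKO against Cebpa-KO were 40 as reported, 25 without a filter, 19 with the compared groups alone, 61 with the block, 22 without the libraries numbered 3, and 18 (without G2) to 63 (without F3) with 1 library left out. Without the libraries numbered 3, 771 genes were called in place of 1206 for the libraries labelled DKO against WT and 1552 in place of 2490 for the interaction. Totals that leave out Mup genes moved the split of higher and lower calls to 674 and 1207 in place of 912 and 1034 for Cebpa-KO, to 417 and 739 in place of 563 and 643 for DKO as labelled against WT, to 1452 and 6346 in place of 2901 and 3105 for DKO as labelled against Trib1-KO as labelled and to 625 and 2883 in place of 1257 and 1233 for the interaction. Depth limits Cebpa in the groups with floxed Cebpa, where it rests on an estimated 45 to 132 reads, and the lowest Cebpd values.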

Other observations

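Genes beside Cebpa on chromosome 7 (GRCm38) were listed within 250 kb of it, a window chosen after the values were seen. Of 9 neighbours tested, Cebpg included, 5 were higher and 0 lower in Cebpa-KO, where 4.6% of all genes were higher, and 6 were higher and 0 lower in the libraries labelled DKO, where 2.84% were. In the libraries labelled Trib1-KO 3 were higher and 4 lower, where 11.8% and 10.9% of all genes were. Gm44836 is counted among the higher neighbours in all 3 groups. It lies inside Cebpg on the same strand, at a mean of 2.67 normalized counts, so it may not be separate from Cebpg. Gm35611, an unnamed transcript at 35086836 to 35090842 on the plus strand, between Cebpg and Cebpa, was higher by 3.87 ± 0.30 in Cebpa-KO (limma adjusted p = 2.76e-09) and by 3.46 ± 0.30 in the libraries labelled DKO (adjusted p = 3.94e-08), and stood at -0.92 ± 0.30 in those labelled Trib1-KO (adjusted p = 0.0268). The peptidase gene Pepd, on the far side of Cebpg, was higher by 0.63 ± 0.10 in Cebpa-KO (limma adjusted p = 7.66e-05) and 0.55 ± 0.10 in the libraries labelled DKO (adjusted p = 0.000622), and lower at -0.33 ± 0.10 in those labelled Trib1-KO (adjusted p = 0.0135). Gm45091, which overlaps the start of Cebpa on the opposite strand, stood at 0.77 ± 0.26 without passing in Cebpa-KO (adjusted p = 0.063) and at 1.04 ± 0.26 in the libraries labelled DKO (adjusted p = 0.0157). Lrp3, on the other side of Cebpa, was higher by 0.51 ± 0.14 in Cebpa-KO (limma adjusted p = 0.0234) and 0.58 ± 0.14 in the libraries labelled DKO (adjusted p = 0.014). It was lower at -0.51 ± 0.14 in those labelled Trib1-KO (adjusted p = 0.0116). Farther out on that side, Gpatch1 did not pass in any of the 3 comparisons with WT. Rhpn2, beyond it, passed in the libraries labelled Trib1-KO alone, at 1.12 ± 0.16 (adjusted p = 1.03e-05).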
